A study of Macaca fascicularis with 64 samples.

Results

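Glucagon-producing α-cells of young and old cynomolgus monkeys (Macaca fascicularis) were compared, monkey by monkey, at the level of single genes and of gene families. Pancreatic islets were taken from 8 young monkeys (4 females and 4 males) and 8 aged monkeys (4 females and 4 males), called old here, with no transgene or treatment named in the sample labels. Each monkey contributed 4 single-cell RNA libraries with molecular barcodes (UMIs), 64 in all, and was processed on a day of its own, so monkey and day are the same variable. Of 6141 cell barcodes, 5908 held over 800 macaque genes and over 10000 UMIs and were retained. A retained cell was taken as an α-cell where glucagon (GCG) was the highest of the hormones GCG, INS, SST and PPY, stood at 20000 counts per 1000000 UMIs of macaque genes (CPM) or more and was at least 2 times the next hormone. This gave 4401 α-cells, 74.5% of the retained cells, of which 2261 came from young and 2140 from old monkeys. A monkey contributed 225 to 359 α-cells in the young group (median 273) and 165 to 342 in the old group (median 289), and the counts of these cells were summed per monkey. In such sums, fewer cells with a transcript and less of it per cell cannot be told apart.

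The hormones chose the cells and are described without a test. GCG was highest in 4503 retained cells, of which 17 fell below 20000 CPM and 85 had a ratio to the next hormone below 2. The α-cells nearest to the limits had 20027 CPM of GCG and a ratio of 2.01, and the nearest cells outside had 19718 CPM and a ratio of 1.99. In the sums, GCG stood between 62075 and 102254 CPM in young monkeys (median 77954) and between 59004 and 96807 CPM in old monkeys (median 73744). Other genes typical of α-cells were present in every monkey of both ages: TM4SF4, a tetraspanin-like membrane protein, ranged from 2243 to 5409.7 CPM in young and from 2708 to 4471 CPM in old monkeys, and IRX2, an α-cell homeobox factor, from 299 to 583 and from 288 to 733 CPM.

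α-cells release glucagon when blood glucose is low, and glucagon makes the liver release glucose. The hormone is cut from proglucagon by prohormone convertase 2, packed into dense-core granules with granins and zinc, and released when calcium channels open and SNARE proteins fuse the granule with the cell membrane. Glucose metabolism, ATP-sensitive potassium channels and signals from neighbouring β-cells and δ-cells set that release, and the heavy load of secretory protein makes the cell rely on ER folding, degradation and transport. Ageing tissues are often examined for senescence (CDK inhibitors and secreted factors), loss of protein quality control, mitochondrial change and inflammation, and these functions are among the gene families described here.

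The depth of the α-cells overlapped between the ages. The median α-cell of a monkey held 39329 to 89500.0 UMIs in the young group and 57011 to 79021 in the old group, a mean difference of -458 UMIs (old minus young, exact permutation test over monkeys, two-sided, p = 0.942). The number of genes detected per cell was 2779 to 4767 in young and 3940.0 to 4758 in old monkeys (difference 42.8, exact permutation p = 0.919). The share of UMIs from spike-in RNA, which falls as a cell holds more RNA, was 4.83% to 5.70% in young and 3.85% to 6.44% in old monkeys (difference 0.0306 percentage points, exact permutation p = 0.929). With the mitochondrial share and the α-cell share of cells, 5 such measures were tested and each had an adjusted p of 0.942.

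In all, 3 monkeys stood apart, all of them young. In young male 3, 112 of 271 α-cells (41.3%) carried inflammatory RNA, with 200 CPM or more summed over UBD, CCL2, VCAM1, FDCSP and BCL2A1, against 0 to 1.09% in the other monkeys, and its cells held the fewest genes. In young female 2, 187 of 359 α-cells (52.1%) carried 500 CPM or more of acinar (digestive enzyme) transcripts, as did 50 of 281 (17.8%) in young female 1 and 0.690% to 8.66% of cells elsewhere. Summed over 8 acinar markers in the files, of 15 listed, the level was 192 to 3755 CPM in young monkeys (median 231) and 129 to 283 CPM in old monkeys (median 212). PLA2G1B alone stood at 183 to 759 CPM in young monkeys (median 213) and 125 to 260 CPM in old monkeys (median 208). It also counted towards the limit of 500 CPM per cell. The other 7 markers summed to 6.32 to 2995 CPM in young monkeys (median 10.9) and 3.18 to 54.1 CPM in old monkeys (median 4.22). Results for the genes and lists that move most with these monkeys are given with and without all 3, a choice made after seeing the data.

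RNA of other cell types was present in the α-cell sums of both ages, as the plot of marker sums by monkey shows. The hormones INS, SST and PPY, which the cell rule used, were left out of these sums. The median α-cell of a monkey held 1369 to 11618 CPM of INS in the young group and 1447 to 14479 in the old group. For SST this was 5.20 to 1432 and 0 to 852 CPM, and for PPY 0 to 2105 and 21.9 to 4504 CPM. Duct markers were the only list of 9 whose sums did not overlap, at 119 to 203 CPM in young monkeys (median 159) and 204 to 444 CPM in old monkeys (median 249). ANXA4 had the highest level of that list and SPP1 the highest age estimate. Without SPP1 the sums overlapped, at 104 to 161 CPM in young monkeys (median 142) and 107 to 208 CPM in old monkeys (median 180.2). Of the defining duct genes, CFTR was at 0 in 15 of 16 monkeys, all old monkeys included, and SOX9 was at 0 in 12 of 16. The keratins KRT7 and KRT19 overlapped between ages, at 0 to 36.2 CPM in young monkeys (median 11) and 0.892 to 69.1 CPM in old monkeys (median 42.2) for KRT7. β-cell markers summed to 199 to 475 CPM in young monkeys (median 259) and 211 to 685 CPM in old monkeys (median 329). δ-cell markers summed to 48 to 79.7 CPM in young monkeys (median 65.2) and 37 to 94.7 CPM in old monkeys (median 67.4), and PP-cell markers to 3.34 to 22.9 CPM in young monkeys (median 9.81) and 4.54 to 56.3 CPM in old monkeys (median 21.2). Stellate cell markers summed to 8.72 to 173 CPM in young monkeys (median 64.6) and 7.43 to 418 CPM in old monkeys (median 27.2), and endothelial markers to 3.91 to 146 CPM in young monkeys (median 13.4) and 3.11 to 135 CPM in old monkeys (median 12.7). Leukocyte markers summed to 2.54 to 207 CPM in young monkeys (median 20.9) and 3.13 to 67.6 CPM in old monkeys (median 8.89) with CD3E at 0 in all 16 monkeys, and Schwann cell markers to 3.37 to 26.5 CPM in young monkeys (median 8.28) and 2.79 to 26.2 CPM in old monkeys (median 7.07). What part these cells or their free RNA have in any age difference was not tested.

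**Figure D1:**
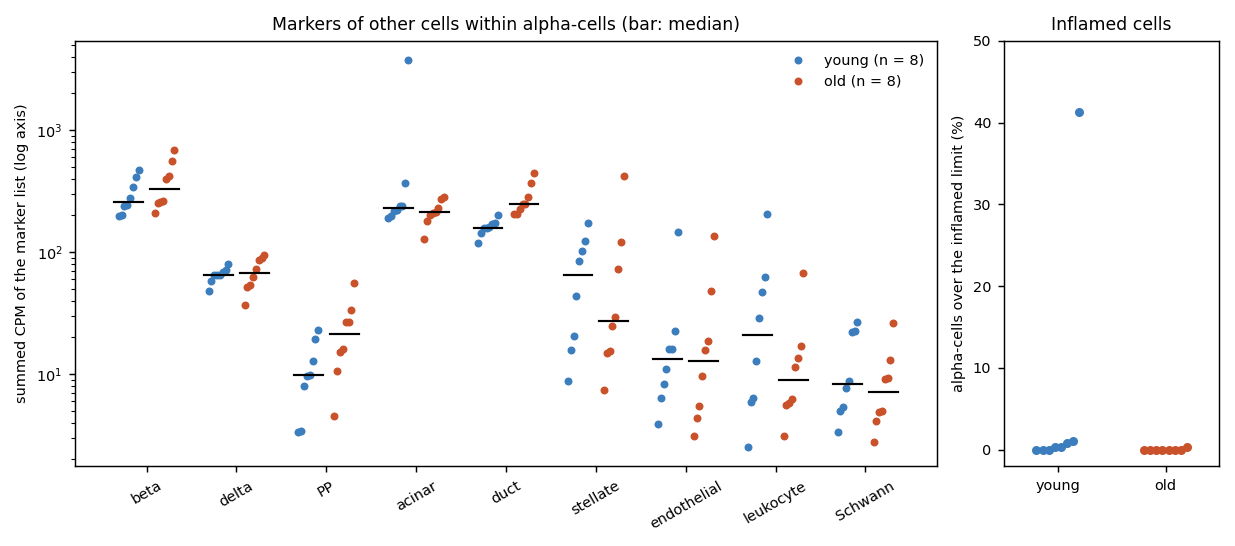
Summed CPM of the marker lists of 9 other cell types in the α-cells of each monkey (vertical log axis) and the percent of α-cells with inflammatory RNA (last panel). The sums leave out INS, SST and PPY. Each point is 1 of 8 young or 8 old monkeys and the bar is the median. Young female 2 reaches 3755 CPM of acinar markers, young male 3 reaches 41.3% inflamed α-cells, and duct sums separate by age, with young monkeys up to 203 and old monkeys from 204 CPM.

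No single gene differed between old and young α-cells at an adjusted p under 0.05. The quasi-likelihood test of edgeR, fitted with sex as a covariate, covered 12811 genes and called 0 higher and 0 lower (0% of genes), while 453 (3.54%) were higher and 404 (3.15%) lower in old monkeys at an unadjusted p under 0.05. DESeq2 on the same sums called 10 higher (0.0781%) and 1 lower (0.00781%), with 520 (4.06%) and 430 (3.36%) at an unadjusted p under 0.05. Leaving out the 3 young monkeys that stood apart, edgeR again called 0 genes of 13305, with 356 higher and 302 lower at an unadjusted p under 0.05. The estimates were balanced, with 50.4% above 0 and a median log2 fold change (old over young) of 0.002 over all genes tested. In 2 of 12811 genes (0.0156%) the 8 old monkeys all lay above the 8 young ones, TAS1R3 and SYNE1, and in 0 genes did they all lie below. Both have a mean of 10 CPM or more, as do 8012 genes (0.025%).

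Since no gene was called, the 10 genes with the smallest p in each direction at a mean of 10 CPM or more are given with their spread, as estimates. Those higher in old α-cells included a sweet-taste receptor subunit, a glycolytic enzyme, a calcium sensor of granule release, calcium-binding membrane proteins and enzymes of glutathione chemistry. Levels are in CPM scaled by TMM, a correction for differences in RNA composition. The p-values are unadjusted, and the edgeR adjusted p was 0.343 for C2orf54, 0.492 for CEP250 and 0.559 for the other 8.

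C2orf54 stood between 4.41 and 13.1 CPM in young monkeys (median 9.32) and between 12.2 and 40.7 CPM in old monkeys (median 24.7) (log2 fold change 1.51 ± 0.27, unadjusted p = 2.7e-05). The ages touched only at the edge, with 7 of 8 old monkeys above the highest young one. CEP250, a protein that ties centrioles together, stood between 16.3 and 25.8 CPM in young monkeys (median 21.7) and between 25.8 and 47.9 CPM in old monkeys (median 39.6) (log2 fold change 0.81 ± 0.16, unadjusted p = 7.7e-05). Again 7 of 8 old monkeys lay above all young ones, the lowest old monkey falling at 25.79 CPM beside the highest young one at 25.80. TAS1R3, the shared subunit of sweet and umami receptors, stood between 8.6 and 19.2 CPM in young monkeys (median 16.4) and between 20.3 and 34 CPM in old monkeys (median 26.9) (log2 fold change 0.85 ± 0.18, unadjusted p = 0.00017), with no overlap. ENO2, the enolase of neurons and endocrine cells, stood between 84.7 and 158 CPM in young monkeys (median 112) and between 125 and 226 CPM in old monkeys (median 178) (log2 fold change 0.63 ± 0.14, unadjusted p = 0.00029). Here 5 of 8 old monkeys exceeded every young one.

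SYT7, a synaptotagmin that senses calcium for granule fusion, stood between 177 and 275 CPM in young monkeys (median 216) and between 245 and 485 CPM in old monkeys (median 311) (log2 fold change 0.54 ± 0.13, unadjusted p = 0.00069). Old monkeys exceeded the highest young one in 7 of 8 cases. SYNE1 encodes nesprin-1, which links the nucleus to the cytoskeleton, and stood between 119 and 166 CPM in young monkeys (median 158) and between 171 and 240.4 CPM in old monkeys (median 196) (log2 fold change 0.39 ± 0.10, unadjusted p = 0.00075), with no overlap. GCA (grancalcin, a calcium-binding protein) stood between 174 and 283 CPM in young monkeys (median 229) and between 240.0 and 513 CPM in old monkeys (median 357) (log2 fold change 0.67 ± 0.16, unadjusted p = 0.00055), and 6 of 8 old monkeys lay above all young ones. ANXA6, a calcium-dependent membrane-binding annexin, stood between 26.4 and 54.5 CPM in young monkeys (median 30.2) and between 44.6 and 68 CPM in old monkeys (median 52.7) (log2 fold change 0.66 ± 0.15, unadjusted p = 0.00039), where the ages overlapped more, with 4 old monkeys above all young ones.

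The remaining genes of the higher group handle glutathione. GPX2, a peroxidase best known from gut epithelium, stood between 6.91 and 26.9 CPM in young monkeys (median 17.3) and between 21.2 and 71.3 CPM in old monkeys (median 32.9) (log2 fold change 1.19 ± 0.29, unadjusted p = 0.00065). GSTO2, an omega-class glutathione transferase, stood between 19.8 and 34.4 CPM in young monkeys (median 25.7) and between 30 and 58.8 CPM in old monkeys (median 42.5) (log2 fold change 0.64 ± 0.15, unadjusted p = 0.00044). In each, 6 of 8 old monkeys exceeded the highest young one. Over the 10 genes, the largest unadjusted p on leaving out any monkey was 0.0038, and the largest without the 3 young monkeys that stood apart was 0.0029. The genes were picked by their small p in these same monkeys, so these values are not independent evidence. DESeq2 called C2orf54 (adjusted p = 0.000435), CEP250 (0.0159), TAS1R3 (0.0197), GPX2 and ENO2 (each 0.0358) of these. It also called COL4A4 (0.0179), IGFBP4 (0.0197), SV2B and EFCC1 (each 0.0358) and 1 gene known only by an Ensembl identifier as higher, and DACH2 as lower (0.0400), names given because DESeq2 called them.

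Among genes lower in old α-cells, the leading estimates belonged to a fatty-acid carrier, restraints of NF-kB, and stress-linked and acinar transcripts, each with an edgeR adjusted p of 0.559 or above. FABP5, a fatty acid-binding protein, stood between 53.1 and 696 CPM in young monkeys (median 341) and between 17.5 and 180.1 CPM in old monkeys (median 84.1) (log2 fold change -2.03 ± 0.48, unadjusted p = 0.00045). Its levels were widely spread among young monkeys, and it kept its estimate without the 3 young monkeys that stood apart (-1.92, unadjusted p = 0.0026). TFPI2, a secreted protease inhibitor, stood between 4.48 and 38 CPM in young monkeys (median 21.2) and between 0.491 and 12.6 CPM in old monkeys (median 4.53) (log2 fold change -2.02 ± 0.54, unadjusted p = 0.0014), with overlap between ages. TANK, an adaptor that dampens NF-kB signalling, stood between 41.7 and 60.4 CPM in young monkeys (median 48) and between 27.1 and 51.3 CPM in old monkeys (median 33.2) (log2 fold change -0.54 ± 0.13, unadjusted p = 0.00052), and 7 of 8 old monkeys lay below the lowest young one.

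NFKBIA encodes the inhibitor that holds NF-kB in the cytosol and stood between 38.1 and 90.6 CPM in young monkeys (median 61.5) and between 30.7 and 51.8 CPM in old monkeys (median 36.4) (log2 fold change -0.63 ± 0.17, unadjusted p = 0.0017). DUSP12, a dual-specificity phosphatase, stood between 63.7 and 105 CPM in young monkeys (median 86.8) and between 50 and 73.7 CPM in old monkeys (median 65) (log2 fold change -0.43 ± 0.11, unadjusted p = 0.001). MTF2, an accessory subunit of the Polycomb complex PRC2, stood between 49.8 and 63.3 CPM in young monkeys (median 58.4) and between 27.6 and 59.8 CPM in old monkeys (median 41.3) (log2 fold change -0.46 ± 0.13, unadjusted p = 0.0022), where 7 of 8 old monkeys lay below all young ones. RBM7, which directs nuclear RNA to decay, stood between 25.5 and 54.9 CPM in young monkeys (median 31.1) and between 20.5 and 26.9 CPM in old monkeys (median 24.4) (log2 fold change -0.52 ± 0.14, unadjusted p = 0.0019). PTGR1, which inactivates prostaglandins and leukotrienes, stood between 30.8 and 89.8 CPM in young monkeys (median 50.6) and between 14.9 and 50.8 CPM in old monkeys (median 29.7) (log2 fold change -0.75 ± 0.21, unadjusted p = 0.0022). In NFKBIA, DUSP12, RBM7 and PTGR1 the ages overlapped.

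The other leading lower genes, PNLIP and NUPR1, rested on the monkeys that stood apart. PNLIP, the pancreatic lipase of acinar cells, had log2 fold change -6.60 ± 1.75 over all monkeys (unadjusted p = 0.0013), with 927 CPM in young female 2 and 34.0 CPM in young female 1, while the young median was 0.812 and the highest old monkey had 2.01 CPM. Without the 3 young monkeys its estimate was -0.57 (unadjusted p = 0.57). NUPR1, a small nuclear protein induced by stress, reached 137 CPM in young female 2 and 23.2 CPM in young male 3 against a highest old level of 2.91 CPM, with log2 fold change -3.66 ± 1.03 (unadjusted p = 0.0021) in all monkeys and -1.04 (unadjusted p = 0.27) without the 3.

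**Figure D2:**
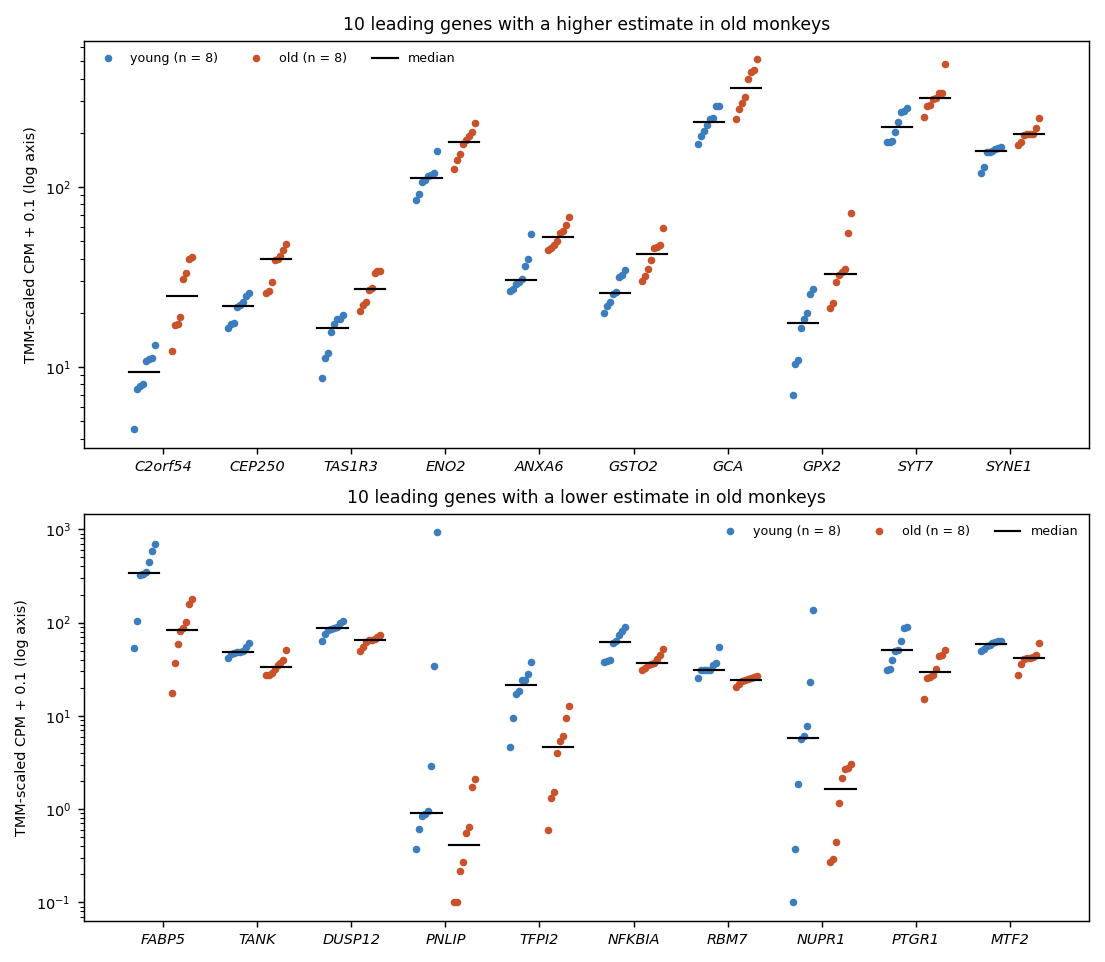
Level of the 10 leading higher and the 10 leading lower genes in the α-cells of each monkey (TMM-scaled CPM + 0.1, vertical log axis), with young monkeys in blue, old monkeys in orange and a bar at the median of 8 monkeys. TAS1R3 and SYNE1 are the genes without overlap, and PNLIP is carried by young female 2 at 927 CPM.

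In part of the gene families most estimates had the same sign, with small medians. Here 48 lists of genes with a shared function were described by the signs and the median of their members' log2 fold changes, beside the 50.4% above 0 and the median of 0.002 of all genes tested. The medians ran from -0.32 to 0.23, with 28 above 0 and 20 below, 10 above 0.1 and 6 below -0.1. Of 1370 listed genes tested, 62 (4.53%) were higher and 53 (3.87%) lower at an unadjusted p under 0.05, beside 3.54% and 3.15% of all genes, and edgeR called 0 at an adjusted p under 0.05 (0% of all genes). These counts describe the lists, and no list was tested against other genes.

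**Figure D3:**
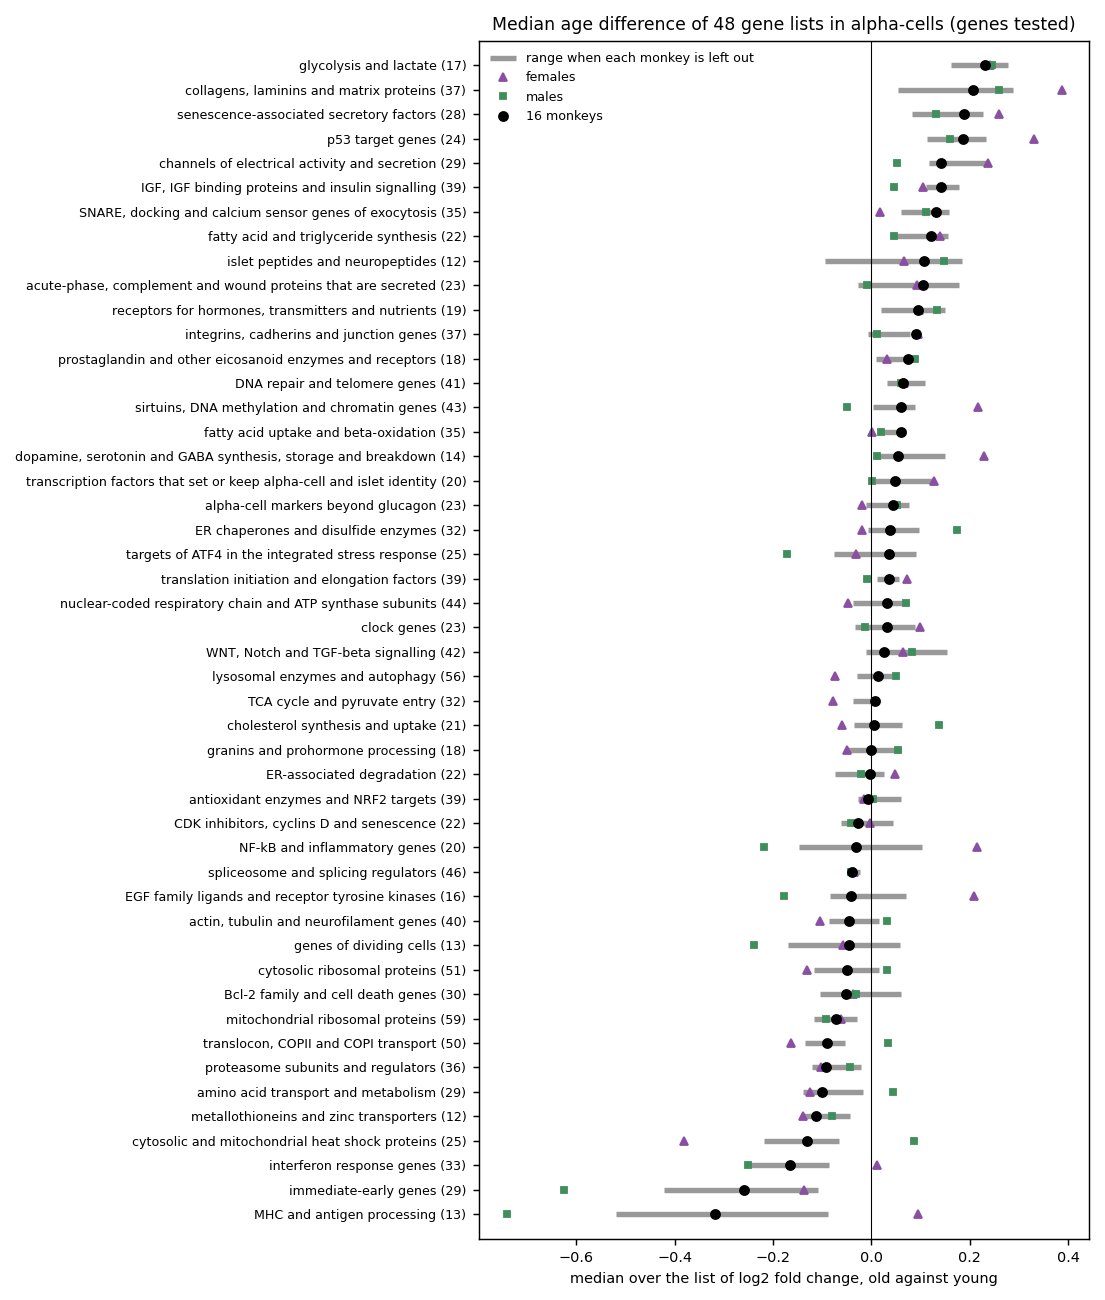
Median log2 fold change, old against young, of 48 gene lists in α-cells (horizontal axis), with the number of genes tested in parentheses. Black points are all 16 monkeys, grey bars the range when each monkey is left out in turn, purple triangles females and green squares males. The values of the sexes come from a fit of all 16 monkeys with an age-by-sex term. Over all 16 monkeys glycolysis has the highest median (0.23) and antigen presentation the lowest (-0.32), where the sexes lie on opposite sides of 0.

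Glycolysis had the highest median of the 48 lists over all 16 monkeys, a place that went to other lists in several alternatives, among them matrix genes without the 3 young monkeys (0.44, against 0.24 for glycolysis) and p53 targets with cells thinned to 10000 UMIs (0.18, against 0.10). Of this list, 14 of the 17 genes tested had a higher estimate and 3 a lower one, with a median of 0.23, and 3 were higher at an unadjusted p under 0.05, among them ENO2 and PFKM, and 0 lower. PFKM, the muscle-type phosphofructokinase, stood between 21.4 and 46.8 CPM in young monkeys (median 37.2) and between 35.3 and 53.8 CPM in old monkeys (median 45.8) (log2 fold change 0.35 ± 0.14, unadjusted p = 0.023). The abundant enzymes had small estimates, with GAPDH at 0.13 ± 0.20, ENO1 at 0.13 ± 0.10 and PGK1 at 0.07 ± 0.10. The mean log2 level of the list, taken relative to its mean over 16 monkeys, was -0.34 to -0.004 in young monkeys (median -0.09) and -0.03 to 0.29 in old monkeys (median 0.13), and 7 of 8 old monkeys lay above the highest young one. The median was 0.24 in females alone and 0.24 in males alone, ranged over 0.16 to 0.28 on leaving out each monkey, and was 0.24 without the 3 young monkeys that stood apart. It was 0.10 when cells were thinned to 10000 UMIs or when only cells with GCG at least 10 times the next hormone were kept.

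Fatty acid and triglyceride synthesis also leaned higher. In this list 15 of the 22 genes tested had a higher estimate and 7 a lower one, with a median of 0.12, which ranged over 0.04 to 0.16 on leaving out each monkey and was 0.06 with cells thinned to 10000 UMIs. ACLY, which makes cytosolic acetyl-CoA, stood between 255 and 533 CPM in young monkeys (median 393) and between 381 and 695 CPM in old monkeys (median 484) (log2 fold change 0.37 ± 0.15, unadjusted p = 0.024). FADS3 and the stearoyl-CoA desaturase SCD had higher estimates of 0.43 ± 0.18 and 0.55 ± 0.26 and the elongase ELOVL4 a lower one of -0.48 ± 0.19, each at an unadjusted p under 0.05. The median was 0.14 in females alone and 0.05 in males alone and 0.14 without the 3 young monkeys. The mean log2 level of the list overlapped, at -0.22 to 0.22 in young monkeys (median -0.10) and -0.03 to 0.20 in old monkeys (median 0.04). Of 8 old monkeys, 8 lay above the young median and 0 above the highest young monkey. Fatty acid oxidation had a median of 0.06 (22 of 35 higher), cholesterol synthesis 0.01 (11 of 21 higher) and prostaglandin and eicosanoid genes 0.08 (10 of 18 higher). In the last list PTGES2, a prostaglandin E synthase, was at 0.45 ± 0.16 and PTGR1 at -0.75 ± 0.21.

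Mitochondrial energy genes were balanced, while the genes that build mitochondrial ribosomes leaned lower. For nuclear-coded respiratory chain subunits 27 of the 44 genes tested had a higher estimate and 17 a lower one, with a median of 0.03, and 0 reached an unadjusted p under 0.05 in either direction. TCA cycle and pyruvate entry genes were split 16 to 16 with a median of 0.01, and the 3 at an unadjusted p under 0.05 were all lower: cytosolic IDH1 (-0.52 ± 0.19), PDK2, a kinase that brakes pyruvate dehydrogenase (-0.46 ± 0.21), and IDH3B (-0.25 ± 0.11). Of mitochondrial ribosomal proteins, 16 of the 59 genes tested had a higher estimate and 43 a lower one, with a median of -0.07, and the median kept its sign in both sexes (-0.06 in females alone and -0.09 in males alone). The shift was spread thinly over many members, and the 1 gene at an unadjusted p under 0.05 went the other way, MRPS10, which stood between 25.7 and 41.7 CPM in young monkeys (median 35.9) and between 40.4 and 71 CPM in old monkeys (median 45.9) (log2 fold change 0.44 ± 0.13, unadjusted p = 0.0026). Cytosolic ribosomal proteins were lower in 33 of 51 with a median of -0.05 and 0 at an unadjusted p under 0.05. That list was -0.13 in females alone and 0.03 in males alone, on opposite sides of 0, and -0.12 without the 3 young monkeys, and its level was lowest in young male 3. Translation factors had a median of 0.04, with EIF4G1 at 0.31 ± 0.12 and EIF1 at -0.30 ± 0.14. Genes of amino acid transport and metabolism had a median of -0.10, with 17 of 29 lower.

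Genes of granule release leaned higher. In the list of SNARE, docking and calcium sensor genes, 24 of the 35 genes tested had a higher estimate and 11 a lower one, with a median of 0.13, and 5 were higher and 0 lower at an unadjusted p under 0.05. Besides SYT7 these included the complexin CPLX2 (0.60 ± 0.26), the syntaxin STX4 (0.51 ± 0.22) and melanophilin, MLPH (1.48 ± 0.68), an adaptor between granules and myosin. The core fusion proteins had estimates near 0 or modestly higher: SNAP25 -0.03 ± 0.14, STX1A 0.17 ± 0.16 and VAMP2 0.23 ± 0.12. The list's median was 0.02 in females alone and 0.12 in males alone, and 0.07 without the 3 young monkeys, of which young male 3 had the lowest level of all 16. On leaving out each monkey it ranged over 0.06 to 0.16.

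Channels of electrical activity and secretion also leaned higher. Among them 21 of the 29 genes tested had a higher estimate and 8 a lower one, with a median of 0.14, with 5 higher and 1 lower at an unadjusted p under 0.05. The calcium channel subunit CACNA2D2 stood between 44.3 and 93.3 CPM in young monkeys (median 63.8) and between 56.9 and 155 CPM in old monkeys (median 92.3) (log2 fold change 0.57 ± 0.20, unadjusted p = 0.012), and the T-type calcium channel CACNA1H between 21.9 and 44.9 CPM in young monkeys (median 29.2) and between 24.2 and 56.5 CPM in old monkeys (median 42.7) (log2 fold change 0.49 ± 0.19, unadjusted p = 0.016). Both overlapped between ages. ABCC8, the sulfonylurea receptor subunit of the ATP-sensitive potassium channel, was at 0.64 ± 0.28 and the potassium channel KCNH2 at 0.29 ± 0.12, while KCNMA1, a calcium-activated potassium channel, was at -0.96 ± 0.43. The median was 0.24 in females alone and 0.06 in males alone. The mean log2 level of the list overlapped widely between ages, at -0.31 to 0.06 in young monkeys (median 0.02) and -0.08 to 0.29 in old monkeys (median 0.02), and there the median of the old monkeys was slightly the lower of the pair.

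The identity programme of the α-cell had small estimates. For the transcription factors of α-cells and islets 15 of the 20 genes tested had a higher estimate and 5 a lower one, with a median of 0.05. NEUROD1, a factor of endocrine differentiation, stood between 91.3 and 131 CPM in young monkeys (median 105) and between 102 and 176 CPM in old monkeys (median 136) (log2 fold change 0.33 ± 0.12, unadjusted p = 0.014), and HNF4A was at 0.48 ± 0.21 (unadjusted p = 0.036), with MEIS2 lower at -0.34 ± 0.15. PAX6 (0.01 ± 0.13) and ISL1 (-0.01 ± 0.15) had estimates near 0. The list's level was -0.30 to 0.23 in young monkeys (median -0.04) and -0.31 to 0.29 in old monkeys (median 0.13), so the ages overlapped almost fully. Markers of α-cells beyond glucagon had a median of 0.04 with 13 of 23 higher, led by the crystallin CRYBA2 (log2 fold change 0.73 ± 0.30, unadjusted p = 0.024).

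Prohormone processing was centred on 0. Of granins and processing enzymes, 9 of the 18 genes tested had a higher estimate and 9 a lower one, with a median of -0.001. Only chromogranin A (CHGA) reached an unadjusted p under 0.05. It stood between 554 and 4516 CPM in young monkeys (median 998) and between 506 and 2528 CPM in old monkeys (median 703) (log2 fold change -0.76 ± 0.32, unadjusted p = 0.027), with wide overlap, while its relative CHGB was at 0.31 ± 0.23. PCSK2, the convertase that frees glucagon, stood at -0.05 ± 0.17, CPE, which trims the cut ends, at 0.02 ± 0.16, and SLC30A8, the granule zinc transporter, at -0.01 ± 0.13. For receptors of hormones, transmitters and nutrients 11 of the 19 genes tested had a higher estimate and 8 a lower one, with a median of 0.10. The glutamate receptor subunit GRIA4 was higher (log2 fold change 1.52 ± 0.58, unadjusted p = 0.017) and the leptin receptor LEPR, which is also a δ-cell marker, lower (log2 fold change -2.53 ± 0.76, unadjusted p = 0.0037), at young medians of 1.74 and 1.97 CPM. The highest GRIA4 level, 28.9 CPM, was in old male 4, and without that monkey the estimate was 0.73 (edgeR unadjusted p = 0.18).

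The lists of protein quality control had different medians by compartment. For ER chaperones and disulfide enzymes 20 of the 32 genes tested had a higher estimate and 12 a lower one, with a median of 0.04, with 0 at an unadjusted p under 0.05 in either direction: the chaperone BiP (HSPA5) was at -0.05 ± 0.34, HSP90B1 at 0.24 ± 0.17 and calreticulin (CALR) at 0.26 ± 0.18. ER-associated degradation was split 11 to 11 with a median of -0.003, and the 3 members at an unadjusted p under 0.05 were higher: HERPUD2 (0.56 ± 0.17), the lectin OS9 (0.31 ± 0.12) and SVIP (0.34 ± 0.16). ATF4 targets had a median of 0.04 and a mean of -0.17, which differ in sign, and its lowest member was NUPR1. Genes of the translocon and of COPII and COPI transport leaned lower, and 13 of the 50 genes tested had a higher estimate and 37 a lower one, with a median of -0.09. Its 1 member at an unadjusted p under 0.05 was KDELR3, a retrieval receptor (-0.77 ± 0.34), and the sexes lay on opposite sides, at -0.16 in females alone and 0.04 in males alone.

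Proteasome subunits leaned lower as well, where 9 of the 36 genes tested had a higher estimate and 27 a lower one, with a median of -0.09. PSMD6 stood between 96.6 and 140.3 CPM in young monkeys (median 115) and between 80.6 and 105 CPM in old monkeys (median 96.3) (log2 fold change -0.30 ± 0.09, unadjusted p = 0.0056) and PSMD8 was also lower (-0.24 ± 0.10), while PSMD2, a subunit of the same regulatory cap, was higher (0.39 ± 0.13, unadjusted p = 0.0081). The proteasome median kept its sign in both sexes, at -0.10 in females alone and -0.04 in males alone, and ranged over -0.12 to -0.02 on leaving out each monkey. Lysosome and autophagy genes had a median of 0.01 with 29 of 56 higher. Their leading member was PSAP, the precursor of the saposins that help degrade sphingolipids, which stood between 619 and 892 CPM in young monkeys (median 756) and between 828 and 1286 CPM in old monkeys (median 925) (log2 fold change 0.40 ± 0.11, unadjusted p = 0.0024). The protease CTSD was at 0.36 ± 0.15, LAMP2 at 0.27 ± 0.13, NBR1 at 0.34 ± 0.15, CTSS at -1.20 ± 0.43 and ATG3 at -0.23 ± 0.10.

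Heat shock proteins of the cytosol and mitochondria had lower estimates in 20 of 25, with a median of -0.13, and the 4 members at an unadjusted p under 0.05 were all lower. BAG3, a partner of HSP70, stood between 2.05 and 41.9 CPM in young monkeys (median 13.7) and between 1.56 and 11 CPM in old monkeys (median 5.83) (log2 fold change -1.44 ± 0.58, unadjusted p = 0.021). HSPB1, the small heat shock protein HSP27, stood between 126 and 1659.7 CPM in young monkeys (median 564) and between 134 and 691 CPM in old monkeys (median 334) (log2 fold change -0.78 ± 0.34, unadjusted p = 0.036). HSPA4 (-0.26 ± 0.11) and STIP1 (-0.36 ± 0.15) were the other members, and in all 4 the ages overlapped. The lower estimates lay in females, with a median of -0.38 in females alone and 0.09 in males alone, a difference that was not tested. Without the 3 young monkeys the median was -0.12.

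Immediate-early genes, which cells switch on within minutes of a stimulus or of handling, had lower estimates in 25 of 29 members, with a median of -0.26. DUSP1, a phosphatase that ends MAP kinase signals, stood between 177 and 461 CPM in young monkeys (median 334) and between 71.3 and 298 CPM in old monkeys (median 232) (log2 fold change -0.60 ± 0.26, unadjusted p = 0.035), and the kinase SGK1 was at -1.04 ± 0.47. FOS was at -0.35 ± 0.33, EGR1 at -0.19 ± 0.35 and NR4A1 at -0.13 ± 0.34, all well within the spread between monkeys. CTGF went the other way, standing between 4.08 and 16.1 CPM in young monkeys (median 8.07) and between 6.08 and 45.4 CPM in old monkeys (median 18.5) (log2 fold change 1.17 ± 0.35, unadjusted p = 0.0032). The level of the list spanned a wide range within each age, at -0.82 to 0.95 in young monkeys (median 0.26) and -1.24 to 0.64 in old monkeys (median -0.13). Its median was -0.14 in females alone and -0.62 in males alone, ranged over -0.42 to -0.11 on leaving out each monkey, and was -0.21 without the 3 young monkeys.

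Antioxidant genes were split, with 18 of 39 higher and a median of -0.01. GPX2 and the ER-bound factor NFE2L1 (0.40 ± 0.15) were higher at an unadjusted p under 0.05, and HMOX2 (-0.37 ± 0.14), TXNIP (-0.75 ± 0.30), SRXN1 (-0.50 ± 0.22) and GSTP1 (-0.31 ± 0.14) lower. Metallothioneins and zinc transporters had lower estimates in 8 of 12 with a median of -0.11, and 0 reached an unadjusted p under 0.05. The metallothionein MT1X was at -0.67 ± 0.50 and the zinc exporter SLC30A1 at -0.53 ± 0.62. In the level of this list 6 of 8 old monkeys lay below the lowest young one, at -0.07 to 0.22 in young monkeys (median 0.16) and -0.43 to 0.34 in old monkeys (median -0.20), while the other two old monkeys reached or neared the top of the range.

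**Figure D4:**
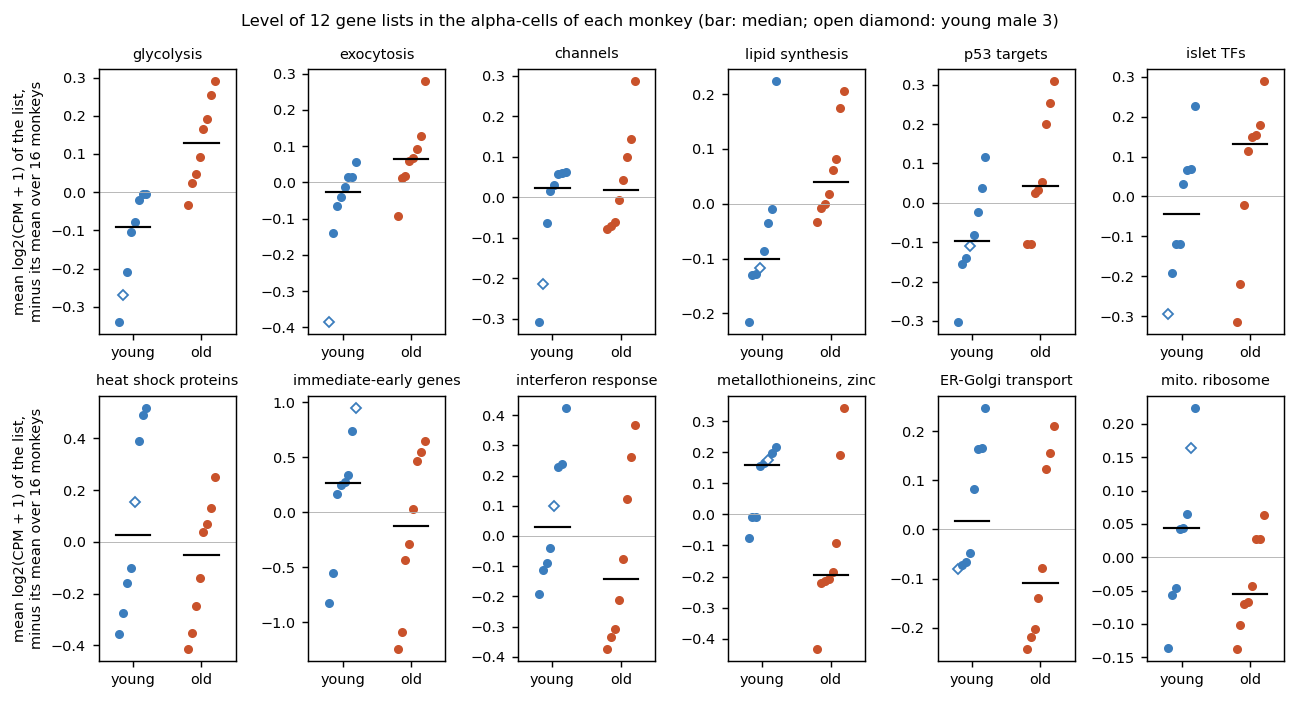
Mean log2(CPM + 1) of 12 gene lists in the α-cells of each monkey, relative to the mean over 16 monkeys (vertical axis, one scale per panel). Points are 8 young (blue) and 8 old (orange) monkeys, the bar is the median and the open diamond is young male 3. Glycolysis has 7 of 8 old monkeys above the highest young one and exocytosis 5 of 8. Below the lowest young one lie 6 of 8 for metallothioneins and 4 of 8 each for interferon response and ER-Golgi transport. The ages overlap in every panel.

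The immune lists had lower medians in males than in females, a difference that was not tested. Of interferon response genes 8 of the 33 genes tested had a higher estimate and 25 a lower one, with a median of -0.17, which was 0.02 in females alone and -0.25 in males alone. IFI6 was lower (log2 fold change -0.90 ± 0.38, unadjusted p = 0.028), while the RNA sensor IFIH1 (MDA5) stood between 47.1 and 72.7 CPM in young monkeys (median 50.7) and between 47.4 and 126 CPM in old monkeys (median 92.5) (log2 fold change 0.66 ± 0.17, unadjusted p = 0.0012) and GBP3 was also higher (1.25 ± 0.57). Antigen presentation had the lowest median of the 48 lists over all 16 monkeys, -0.32, with 9 of 13 lower. This median ranged over -0.52 to -0.09 on leaving out each monkey, and was -0.10 with cells thinned to 10000 UMIs and -0.06 over genes with a mean of at least 10 CPM. Its median was 0.10 in females alone and -0.64 in males alone, and -0.43 without the 3 young monkeys. The members at an unadjusted p under 0.05, the immunoproteasome subunit PSMB8 (-1.33 ± 0.47) and HLA-DMA (-2.18 ± 1.01), had young medians of only 4.19 and 1.06 CPM, while B2M, the light chain of every class I molecule, was at -0.04 ± 0.29. Leukocyte marker sums overlapped between ages, at 2.54 to 207 CPM in young monkeys (median 20.9) and 3.13 to 67.6 CPM in old monkeys (median 8.89). Their part was not tested. NF-kB and inflammatory genes had a median of -0.03 with 11 of 20 lower, NFKBIA and CD83 (-0.53 ± 0.24) being the ones at an unadjusted p under 0.05.

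Matrix genes had a higher median over all 16 monkeys, led by a pair of basement membrane collagens. Of collagens, laminins and matrix proteins 26 of the 37 genes tested had a higher estimate and 11 a lower one, with a median of 0.21. The median ranged over 0.05 to 0.29 on leaving out each monkey and was 0.44 without the 3 young monkeys. It was -0.01 over cells with GCG at least 10 times the next hormone and 0.005 with each cell weighted equally. COL4A4 stood between 0.729 and 9.73 CPM in young monkeys (median 4.16) and between 2.99 and 40.4 CPM in old monkeys (median 18.9) (log2 fold change 2.15 ± 0.55, unadjusted p = 0.00093) and COL4A3 between 2.04 and 20.2 CPM in young monkeys (median 7.07) and between 3.51 and 52.8 CPM in old monkeys (median 32.7) (log2 fold change 1.98 ± 0.51, unadjusted p = 0.0011), and the ages overlapped in each. These chains form one collagen IV network with COL4A5, which was at 0.18 ± 0.17. Fibroblast matrix genes in the list, DCN (1.71 ± 0.99) and COL3A1 (1.56 ± 1.09), had large estimates with wide errors, and the stellate marker sum reached 418 CPM in the highest old and 173 CPM in the highest young monkey. Adhesion genes had a median of 0.09 with 21 of 37 higher and 0 at an unadjusted p under 0.05.

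IGF and insulin signalling genes had higher estimates in 27 of 39, with a median of 0.14. IGFBP4, which binds and withholds IGF, stood between 0.0459 and 5.97 CPM in young monkeys (median 1.04) and between 0.347 and 25.1 CPM in old monkeys (median 4.89) (log2 fold change 2.80 ± 0.79, unadjusted p = 0.0021), a gene of a few CPM. IGFBP2 (-1.70 ± 0.68) and PIK3R1 (-0.77 ± 0.28), a regulatory subunit of PI3 kinase, were lower at an unadjusted p under 0.05. Secreted acute-phase and wound proteins had a median of 0.10 with 13 of 23 higher, and the 3 at an unadjusted p under 0.05 were SPP1, APOD and SERPINA1, genes that the study itself had picked on these animals, so their direction is not independent evidence. The median of EGF family and growth factor receptor genes was -0.04, and that of WNT, Notch and TGF-beta genes 0.03, where the 4 at an unadjusted p under 0.05 were higher: ID4 (0.78 ± 0.27), TGFBR3 (0.94 ± 0.43), SFRP1 (1.03 ± 0.48) and FST (2.06 ± 0.98).

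SPP1 encodes the secreted phosphoprotein osteopontin and stood between 11.4 and 53.1 CPM in young monkeys (median 22.6) and between 12 and 240.0 CPM in old monkeys (median 74.2) (log2 fold change 1.98 ± 0.54, unadjusted p = 0.0016). In old monkeys it was split, with 4 of 8 above the highest young one and the others within the young range. It is also a duct marker. CFTR was at 0 in every old monkey, while KRT7 (median 11 CPM in young and 42.2 CPM in old monkeys), KRT19 (11.5 and 18.7 CPM) and the duct sum without SPP1 and ANXA4 (43.8 and 77.5 CPM) were higher at the median in old monkeys. Their part in the SPP1 difference was not tested. APOD, a lipid-carrying apolipoprotein, stood between 0.657 and 33.6 CPM in young monkeys (median 4.9) and between 1.58 and 167 CPM in old monkeys (median 15.2) (log2 fold change 2.03 ± 0.74, unadjusted p = 0.013), and its unadjusted p was 0.14 without old male 1. SERPINA1 (alpha-1 antitrypsin, a protease inhibitor) stood between 84.6 and 363 CPM in young monkeys (median 132) and between 123 and 849.7 CPM in old monkeys (median 289) (log2 fold change 1.00 ± 0.37, unadjusted p = 0.015), and its unadjusted p was 0.098 without the 3 young monkeys. TTR, the thyroid hormone and retinol carrier that is among the most abundant α-cell transcripts, stood between 60544 and 102073 CPM in young monkeys (median 74736) and between 55441 and 96219 CPM in old monkeys (median 76084) (log2 fold change -0.05 ± 0.16, unadjusted p = 0.75). The ages overlapped, with 3 of 8 old monkeys below the lowest young one.

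Cell-cycle brakes and p53 targets gave different pictures. CDKN1A (p21) stood between 11.5 and 46.9 CPM in young monkeys (median 25.6) and between 22.1 and 52.2 CPM in old monkeys (median 26.5) (log2 fold change 0.17 ± 0.26, unadjusted p = 0.5) and CDKN2A (p16) between 3.88 and 16.2 CPM in young monkeys (median 11.1) and between 8.2 and 23.8 CPM in old monkeys (median 13.9) (log2 fold change 0.47 ± 0.30, unadjusted p = 0.13), with wide overlap in each. In the wider list of CDK inhibitors, D-type cyclins and senescence genes 10 of the 22 genes tested had a higher estimate and 12 a lower one, with a median of -0.03, with CDKN1C (p57) higher at 0.88 ± 0.36 and CCND2 lower at -0.65 ± 0.23, as was GADD45B at -0.70 ± 0.30. Of p53 targets, 18 of the 24 genes tested had a higher estimate and 6 a lower one, with a median of 0.19, and the 3 at an unadjusted p under 0.05 were higher: BAX, which opens the mitochondrial membrane in apoptosis, stood between 8.3 and 20 CPM in young monkeys (median 10.7) and between 7.95 and 31 CPM in old monkeys (median 20.6) (log2 fold change 0.76 ± 0.25, unadjusted p = 0.0068), and CCNG1 was at 0.27 ± 0.12 and AEN at 0.76 ± 0.33. The p53 list was 0.33 in females alone and 0.16 in males alone, ranged over 0.11 to 0.23 on leaving out each monkey, and was 0.19 without the 3 young monkeys. Senescence-associated secretory factors had higher estimates in 19 of 28 and a median of 0.19. At an unadjusted p under 0.05, SPP1, IGFBP4 and the TNF receptor TNFRSF1A (0.83 ± 0.34) were higher and IGFBP2 (-1.70) lower. Bcl-2 family and cell death genes had a median of -0.05, which was 0.12 without the 3 young monkeys. At an unadjusted p under 0.05, 2 members were higher, BAX and AIFM2 (1.65 ± 0.67), and 2 lower, BIRC2 (-0.22 ± 0.10) and TNFRSF21 (-0.56 ± 0.24).

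Lists of nuclear functions had medians close to 0. Splicing genes were lower in 27 of 46 with a median of -0.04, and the 5 at an unadjusted p under 0.05 were all lower. SRSF3, an SR protein that guides exon choice, stood between 165 and 231 CPM in young monkeys (median 184) and between 124 and 176 CPM in old monkeys (median 151) (log2 fold change -0.31 ± 0.10, unadjusted p = 0.0056), with 6 of 8 old monkeys below the lowest young one. SRSF2 was at -0.34 ± 0.11 (unadjusted p = 0.0048), SRSF7 at -0.27 ± 0.12, SNRPB at -0.38 ± 0.15 and CLK1, a kinase of SR proteins, at -0.28 ± 0.11. Sirtuin and chromatin genes had a median of 0.06, with CBX5 (0.31 ± 0.12) and SMARCA4 (0.34 ± 0.14) higher. DNA repair and telomere genes had a median of 0.06 with 27 of 41 higher, while ERCC1 was lower at an unadjusted p under 0.05 (-0.35 ± 0.15). Genes of dividing cells had a median of -0.05, which turned to 0.06 without the 3 young monkeys, and a mean of -0.34, with MCM6 (-2.11 ± 0.90) and TPX2 (-1.28 ± 0.55) lower, and their level was highest in young male 3.

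Monoamine genes were led by a pair of enzymes with higher estimates. GCH1, which starts the synthesis of the cofactor of dopamine and serotonin production, stood between 76 and 151 CPM in young monkeys (median 95.7) and between 103 and 168 CPM in old monkeys (median 142) (log2 fold change 0.49 ± 0.13, unadjusted p = 0.0016). DDC, which makes dopamine and serotonin from their precursors, stood between 70.6 and 224 CPM in young monkeys (median 154) and between 153 and 503 CPM in old monkeys (median 265) (log2 fold change 0.91 ± 0.27, unadjusted p = 0.0031). The ages overlapped in each. ABAT, which breaks down GABA, was lower at -0.61 ± 0.24, and the list of 14 had a median of 0.05. Of clock genes, 14 of 23 were higher with a median of 0.03: the repressor NR1D2 stood between 10.6 and 23.5 CPM in young monkeys (median 14.6) and between 11.7 and 42.1 CPM in old monkeys (median 22.6) (log2 fold change 0.70 ± 0.20, unadjusted p = 0.0022), and USP2 (-0.45 ± 0.16) and PER2 (-0.28 ± 0.13) were lower. Cytoskeletal genes had a median of -0.05, with MAP1B (log2 fold change 0.38 ± 0.11, unadjusted p = 0.003), STMN3 (0.31 ± 0.11) and STMN2 (0.60 ± 0.28) higher and TMSB10 (-0.28 ± 0.12) lower. Islet peptides and neuropeptides had a median of 0.11, where amylin (IAPP), a β-cell hormone, was higher (log2 fold change 1.00 ± 0.43, unadjusted p = 0.033).

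Markers of other cell types were followed in the same fit. Here the β-cell, δ-cell and PP-cell lists include INS, SST and PPY, whose levels the cell rule limited. The counts and medians of these lists are therefore a description only. Of β-cell markers, 10 of 11 tested had a higher estimate, with a median of 0.31 that was 1.13 in females alone and -0.24 in males alone. The 5 acinar markers tested were all lower, with a median of -3.04 over all monkeys and -0.53 without the 3 young monkeys that stood apart. Medians were 0.32 for 7 duct markers, 0.96 for 5 PP-cell markers, -0.41 for 7 δ-cell markers, 0.03 for 7 stellate markers, 0.00 for 5 endothelial markers, -1.49 for 5 leukocyte markers and -0.82 for 3 Schwann cell markers. Among the 48 function lists, 15 kept the sign of their median under all 33 alternatives of monkeys, cells, scaling and model. Of these 11 were higher, among them glycolysis, exocytosis, channels, lipid synthesis, IGF and insulin signalling and p53 targets, and 4 were lower: immediate-early genes, metallothioneins and zinc transporters, mitochondrial ribosomal proteins and the proteasome.

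Females and males were set side by side to ask whether age differences depended on sex. In 26 of 48 lists the medians of the sexes had the same sign. A single gene of 12811 (0.00781%) passed the edgeR test of the difference in age effect, with 706 (5.51%) at an unadjusted p under 0.05, and DESeq2 called 1 gene as well (0.00781%), with 785 (6.13%) unadjusted. The gene was CACNA1F, an X-linked L-type calcium channel subunit. Young females had 20.4, 33.8, 19.0 and 19.2 CPM and young males 1.31, 0.0730, 0.754 and 0.505 CPM. Old females had 11.8, 12.2, 13.1 and 2.25 CPM and old males 22.8, 26.2, 51.4 and 21.9 CPM. Thus all old males lay above all young males and all old females below all young females. The log2 fold change with age was -1.23 in females (edgeR adjusted p = 0.581) and 5.50 in males (adjusted p = 0.00108), a difference of 6.72 ± 0.80 (adjusted p = 0.00189) that stayed between 6.36 and 7.28 on leaving out each monkey.

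β-cells of the same monkeys were taken by the mirrored rule (INS in place of GCG), which gave 1086 cells, 456 young and 630 old, with as few as 8 in young female 2. At the level of families, the β-cell median was 0.02 for glycolysis where α-cells had 0.23, 0.16 for exocytosis (0.13 in α-cells), 0.35 for ER chaperones (0.04), 0.17 for ER-Golgi transport (-0.09), 0.10 for heat shock proteins (-0.13) and -0.03 for p53 targets (0.19). The differences between the cell types were not tested for lists. In β-cells, edgeR called 3 genes higher (0.0285%) and 2 lower (0.019%) of 10517, with 255 (2.42%) and 266 (2.53%) at an unadjusted p under 0.05.

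Gene by gene, edgeR called 0 of 13146 genes (0%) for a difference in age effect between α-cells and β-cells, with 659 (5.01%) at an unadjusted p under 0.05, and DESeq2 called 6 (0.0456%), with 960 (7.3%) unadjusted. The leading edgeR estimates were IFNAR2, an interferon receptor chain (α minus β -3.23 ± 0.59, adjusted p = 0.0874), and SLC25A1, the mitochondrial citrate carrier (1.04 ± 0.20, adjusted p = 0.0874), named after their values were seen. In each the estimate lay in β-cells, at 2.89 ± 0.64 for IFNAR2 and -1.02 ± 0.20 for SLC25A1, beside -0.30 and 0.04 in α-cells. Of the leading α-cell genes, TAS1R3 was at -0.29 ± 0.40 in β-cells, FABP5 at -0.96 ± 0.38 and GPX2 at 1.11 ± 0.28. SPP1 was at 2.46 ± 0.57 and SERPINA1 at 2.24 ± 0.38 in β-cells, the latter with an edgeR adjusted p of 0.0148. The difference between cell types (α minus β) was 1.14 ± 0.41 for TAS1R3 and -1.17 for SERPINA1, each with an edgeR adjusted p of 0.954. A difference in age effect was thus not shown for either gene.

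**Figure D5:**
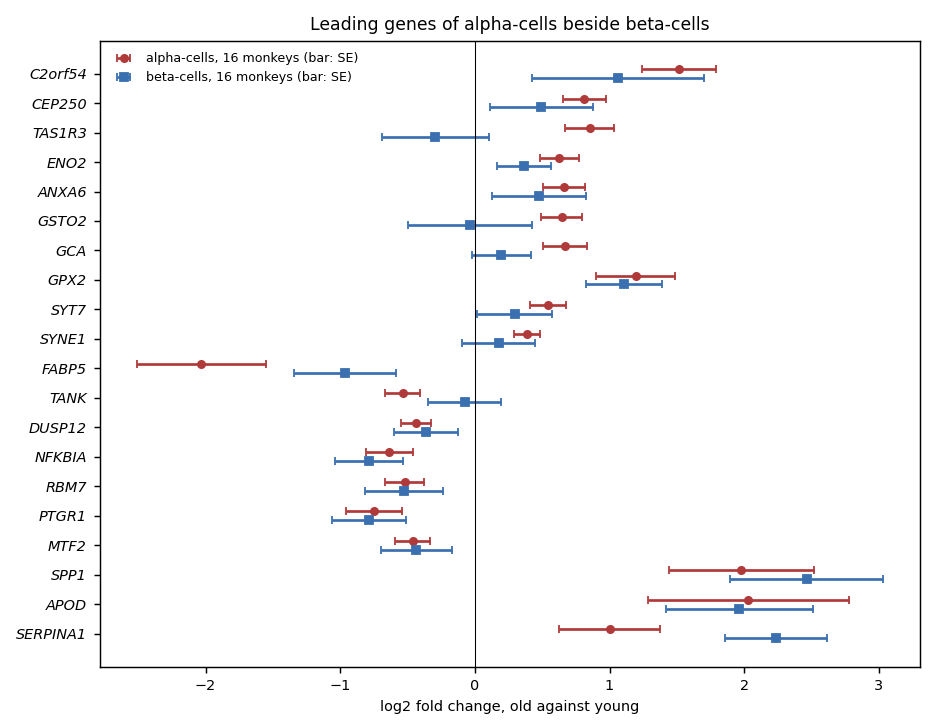
Log2 fold change, old against young, of leading genes in α-cells and in β-cells of the same monkeys (points, with bars of 1 standard error). SPP1 and SERPINA1 have the larger estimates in β-cells, at 2.46 and 2.24, and TAS1R3 is at 0.85 in α-cells and -0.29 in β-cells. The difference between the cell types had an edgeR adjusted p of 0.954 for TAS1R3.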

How the data were processed

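Islets were dissociated and each cell was hand-picked with a pipette and sequenced with a modified STRT protocol, 4 libraries per monkey. Per the labels and methods, the authors trimmed the reads, mapped them with TopHat2 2.0.12 to the Macaca_fascicularis_5.0 genome, kept uniquely mapped reads and collapsed UMIs. The deposited values are raw UMI counts per gene and cell, with no normalization and no filter on cells. The study's cut on mapping rate was not applied. The 64 tables hold 21041 macaque genes, of which 5046 have only an Ensembl identifier, and 95 spike-in rows, which stayed out of CPM, sums and tests. No cell name was shared between libraries (0 shared).

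α-cell counts were summed per monkey and tested with edgeR 4.0.16 (TMM, filterByExpr, quasi-likelihood, sex as covariate, Benjamini-Hochberg) in R 4.3.3, all 16 monkeys in the fit. DESeq2 1.42.0 and limma 3.58.1 served as alternatives. Interactions of age with sex and, with monkey as block, with cell type used the same test. Quality measures were compared by exact permutation tests over monkeys. P-values set a difference against the spread between monkeys. Doublets were not called, and an alternative dropped the 220 α-cells whose UMI totals exceeded percentile 95. The test was also tried on simulated counts, with levels and spread taken from the fits of these data.

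The cell rule, the 57 lists (48 of functions, 9 of other cell types) and the rule for named genes were chosen with earlier results of these data known. That rule named genes with a symbol: the 10 largest changes in each direction with adjusted p under 0.05 and a mean of 10 CPM, filled by smallest unadjusted p where fewer passed, 6 genes the study named (SPP1, APOD, SERPINA1, TTR, CDKN1A, CDKN2A), per list at most 4 called members or else at most 2 with the smallest unadjusted p under 0.05, and called interaction genes. List members beyond the rule were named after their values were seen, to complete counts or as well-known members. Some genes of the lists are counted but not reported here by name.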

Additional observations from a re-analysis of the deposited data

Results flagged for a closer look

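Values of 158 groups of 8 monkeys were searched for a monkey far from the other 7 of its age, by Dixon's test at its 95% limit of 0.526, and 10 groups passed, where chance gives about 1 in 20. In young male 3 the α-cells held 2779 genes per cell (next monkey 4076), and its list levels, as mean log2(CPM + 1) relative to the mean of 16 monkeys, were far from the nearest young monkey for exocytosis (-0.385 against -0.138), amino acid transport and metabolism (-0.183 against 0.013), cytosolic ribosomal proteins (-0.516 against -0.031) and genes of dividing cells (1.031 against 0.11). This is the monkey with 41.3% inflamed α-cells. Young male 1 was high for fatty acid and triglyceride synthesis (0.223 against -0.01). Among old monkeys, old male 1 was high for lysosome and autophagy genes (0.16 against 0.021) and low for NF-kB and inflammatory genes (-0.507 against -0.09), and old female 3 was low for DNA repair and telomere genes (-0.136 against -0.014). SYT7 reached 8.924 on the log2(CPM + 1) scale in old female 3, with the next old monkey at 8.376.

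CACNA1F stood out because its age difference was larger in males than in females by 6.72 on the log2 scale, by the test of the difference itself.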

How the results depend on the processing

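Under 33 alternatives for the age comparison, edgeR or limma called 0 genes in either direction except in males alone, where 1 gene was higher (CACNA1F). DESeq2 called 10 higher and 1 lower. Counts at an unadjusted p under 0.05 were 707 higher and 787 lower with no filter on low counts (18675 genes), 247 higher in males only, and 248 lower where GCG was at least 10 times the next hormone. On leaving out each monkey in turn they ranged over 336 to 525 higher and 319 to 458 lower, with 0 called in either direction each time. The test by sex called 1 gene each time, and the test by cell type 0 to 1 (1 without young female 1) and 6 with DESeq2. Old minus young differences ranged over -4320 to 2847 for median UMIs, -175 to 109 for genes per cell and -0.135 to 0.234 for the spike-in percentage, and with means over cells were -44.8 genes and -0.159 percentage points. Of the genes named by the rule, those whose estimate changed sign were TTR (0.0063 where GCG was at least 10 times the next hormone, 0.0163 without the 3 young monkeys, -0.118 to 0.0208 on leaving out each monkey), CDKN1A (-0.00704 in males only, -0.00648 to 0.321 on leaving out each monkey) and CACNA1F (-1.23 in females only). Among the 48 function lists, only 15 kept the sign of their median under all 33 alternatives. The causes were not tested. With library sizes alone as scaling the median of all genes was 0.019. PNLIP could not be fitted without cells rich in acinar RNA, an alternative added, like that without the 3 young monkeys, after seeing the data.

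Young and old monkeys share numbers within each sex in the labels. Same-numbered monkeys correlated at -0.043 to 0.122 in their deviations. Differently numbered monkeys were not set beside them, so these values cannot show whether the numbers pair monkeys. The labels name no pairing. With the replicate block 0 genes were called higher and 0 lower, with 387 and 368 at an unadjusted p under 0.05.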

Other observations

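EGFR, the epidermal growth factor receptor, varied widely between monkeys of the same age, and was chosen after its values were seen. Its level in α-cells was 0.204, 0.806, 0.23 and 102 CPM in young females 1 to 4 and 0.399, 0.292, 3.33 and 161 CPM in young males 1 to 4. It was 10.6, 113, 224 and 129 CPM in old females 1 to 4 and 0.809, 178, 66.6 and 104 CPM in old males 1 to 4. The age estimate was 1.64 ± 1.22 on the log2 scale (edgeR unadjusted p = 0.2, adjusted p = 0.844).

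NPY, a neuropeptide chosen in the same way, was at 0 in part of the old monkeys and high in others. It was 0, 0, 59.1 and 0 CPM in old females 1 to 4, 15, 85.4, 0 and 559 CPM in old males 1 to 4, and at most 22.1 CPM in a young monkey (log2 fold change 3.0 ± 1.72, edgeR unadjusted p = 0.099).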
